A study of Mus musculus with 25 samples.

Results

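Regulatory T cells (Treg) labelled as lacking both p65 and c-Rel were compared with wild-type (WT) Treg after both had been stimulated through the T cell receptor. The comparison rests on 4 of the 25 libraries of the series: 2 labelled DKO Treg stim and 2 labelled WT Treg stim, chosen by these titles and read as the pairs of replicate 1 and of replicate 2. All cells came from spleen and lymph node of C57BL/6 mice. Stimulated cells were cultured for 3 h with CD3 and CD28 antibodies at 2 μg/ml and IL-2, so all 4 libraries share that culture. The genotype of the DKO libraries is given as p65 c-Rel DKO. The labels used here name neither the alleles nor the Cre driver, and do not say whether the 2 replicates of a group came from separate animals. The p-values therefore measure only a spread between libraries, part of which may be technical. That spread was estimated over 21 of the 25 libraries, in 10 groups, and not over the 4 alone. For context, values are also given for the resting Treg (2 DKO and 4 WT libraries, not stimulated), for 2 libraries of stimulated WT conventional T cells (Tconv) and for the single stimulated libraries labelled p65KO and c-RelKO. The 4 libraries of a separate set treated with TAT-Cre were left out.

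Treg are CD4 T cells that restrain other immune cells. Their identity depends on the transcription factor Foxp3. p65, encoded by Rela, and c-Rel, encoded by Rel, are NF-kB subunits with a transactivation domain. In resting T cells they are held in the cytoplasm by inhibitor proteins of the IkB family. Signals from the T cell receptor and CD28 release them. NFAT and AP-1 factors are activated by the same receptors, and in Tconv all these factors act on cytokine genes such as Il2. Foxp3-expressing cells normally make little of the cytokines that effector T cells secrete.

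Levels are in FPKM: fragments counted on a transcript, scaled to its length and to the library's depth. FPKM thus allow levels of different genes to be compared. Differences are DKO minus WT on the log2(FPKM + 1) scale with their standard error (SE), which understates the change of genes with low FPKM. Genes were tested if at least 2 of the 21 libraries outside the TAT-Cre set reached 1 FPKM, which left 11532 genes. A gene is called where limma gave a Benjamini-Hochberg adjusted p under 0.05. The depth implied by the Cufflinks confidence bounds was 17.2 and 37.6 M fragments for WT stim and 20.9 and 50.2 M for DKO stim (replicates 1 and 2).

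The targeted genes were examined first. Rel (chr11:23641729-23670970, mm9) stood at 298 and 283 FPKM in the WT libraries and at 2.23 and 2.14 in the DKO libraries. Its fall was -6.52 ± 0.89 (limma, adjusted p = 0.000123), or 133-fold between the group means. Rela (chr19:5637490-5648130, mm9) was 126 and 118 FPKM in WT and 107 and 99.0 in DKO. That difference of -0.25 ± 0.26 did not pass the test (adjusted p = 0.513). The Rela groups did not overlap, but the transcript was almost as abundant in DKO as in WT, so the gene-level value of Rela does not check the loss of p65. Such a value does not show which exons are transcribed. The other 3 subunit genes, Relb, Nfkb1 and Nfkb2, were not called either.

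The T cell markers of the sort were present in all 4 libraries. Cd3e was 161 and 152 FPKM in WT and 230 and 210 in DKO, and Cd4 was 128 and 108 in WT and 263 and 270 in DKO. Cd4 (1.17 ± 0.42, adjusted p = 0.0479) was called in the full fit, and no longer when any 1 of the 4 libraries was left out (adjusted p 0.123 to 0.183). Cd8a was at most 0.206 FPKM. The sex-linked transcripts showed that WT replicate 2 differed from the other 3: Xist was 0.0129 FPKM there and 66.0, 27.9 and 36.0 in WT replicate 1 and the DKO libraries, while the Y-linked Ddx3y was 108 there and 0 in the others. The second pair thus set Treg of a male-type library against a female-type one. Replicates 1 and 2 also came from different consecutive runs of library numbers, which differed in depth. Nothing in the labels names these runs as batches.

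The stimulated and resting labels were checked on 459 genes that stimulation raised at least 2-fold in Tconv. In the WT and DKO Treg libraries 413 to 428 of these were higher in the stimulated library of each run than in the resting one, and 430 were in the c-RelKO libraries. The size of the rise differed. Its median over the 459 genes was 0.20 and 0.33 log2 in WT Treg (stimulated replicates 1 and 2). It was 0.75 and 0.88 in DKO Treg and 0.52 in c-RelKO Treg, so the WT libraries showed the smaller response. The p65KO libraries went the other way: 359 of the 459 were lower in the library labelled p65KO stim than in p65KO replicate 3, labelled as resting. Irf8, for example, was 15.5 FPKM in the former and 69.6 in the latter. Neither enters the difference between DKO and WT Treg, but both add to the estimate of the spread. Without them 3921 genes and 125 interactions were called, against 3774 and 112 with them.

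Of the 11532 genes tested, 3774 (32.7%) were called: 1909 (16.6%) were higher and 1865 (16.2%) lower in stimulated DKO Treg. The median difference over all genes tested was 0.00. Among the called genes, 1080 were higher and 1067 lower by at least 2-fold. At least 8-fold differences were seen for 109 genes on the higher and 33 on the lower side, and at least 32-fold ones for 25 and 3. With the run of library numbers as a block, which takes up what same-numbered libraries share, 7230 genes were called, 3621 higher and 3609 lower. Leaving out 1 library at a time gave fewer: 1903 without WT replicate 1, 2126 without DKO replicate 2, 2616 without WT replicate 2 and 2804 without DKO replicate 1. The 16.6% higher and 16.2% lower are the background against which the counts of the gene groups below are read. Counts given with the replicate block have another, larger background: 3621 higher and 3609 lower of 11532 genes.

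**Figure D1:**
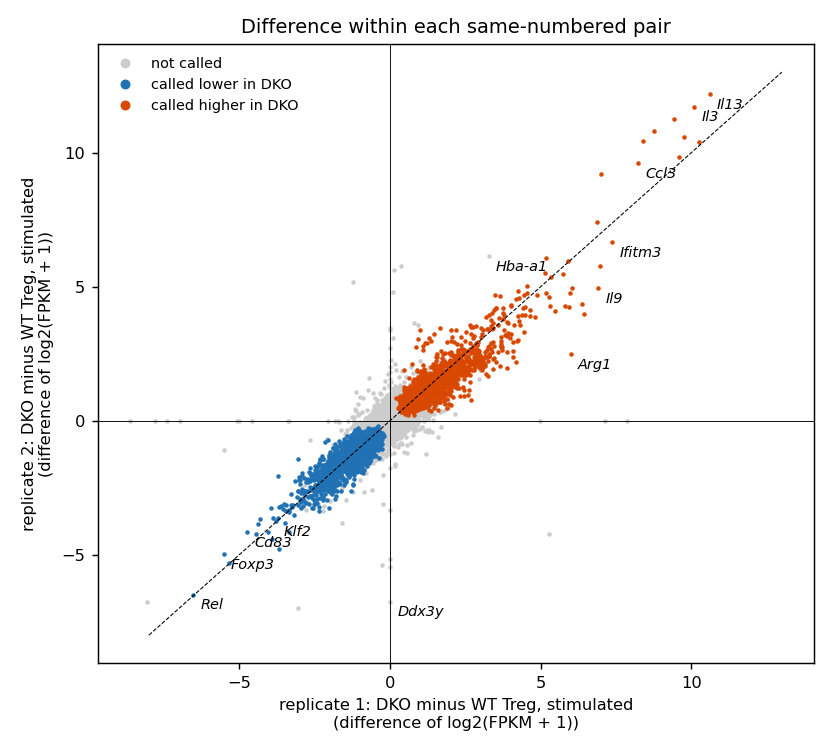
Difference between stimulated DKO and WT Treg in the replicate 1 pair (horizontal axis) and in the replicate 2 pair (vertical axis), in log2(FPKM + 1), for all 11532 genes tested. Orange points were called higher, blue points lower and grey points not called, and the dashed line marks equal differences. Il13 lies highest in both pairs, Rel and Foxp3 lie far down near the line, and Ddx3y moves in the second pair only.

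Cytokine genes held the largest rises. Of 27 tested cytokine genes, 20 were called higher and 3 lower, with a median difference of 4.09. All 10 of the named genes with the largest rises encoded secreted factors. In order these were Il13, Il3, Csf2, Il5, Ccl1, Ifng, Il4, Il2, Ccl3 and Ccl4, with differences from 11.39 down to 8.10.

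Among type 2 cytokines, Il13 (chr11:53444825-53448204, mm9), a driver of mucus production and of alternative macrophage activation, was 6.49 and 1.85 FPKM in WT and 11690 and 13080 in DKO. Its difference was 11.39 ± 1.03 (limma, adjusted p = 5.05e-06), a ratio of the group means of 2972. By FPKM it ranked first and second among all genes of the 2 DKO libraries. Il5, the main growth factor of eosinophils, was 2.97 and 0.866 FPKM in WT and 4799 and 2527 in DKO (10.32 ± 0.90, adjusted p = 3.89e-06). Il4, which drives T cells toward type 2 responses and B cells toward IgE, was 6.87 and 5.48 FPKM in WT and 6051 and 5971 in DKO (9.72 ± 1.07, adjusted p = 2.51e-05). Il4, Il13 and Il5 lie within one stretch of chromosome 11 in the deposited coordinates, from 53425963 to 53538605 (mm9). Il9, known for its action on mast cells, was 0.541 and 1.43 FPKM in WT and 183 and 73.5 in DKO (5.92 ± 0.58). No WT library overlapped a DKO library for any of these 4 genes, and for Il4 and Il13 the DKO replicates lay closer to each other than to any other library. Leaving out 1 library moved Il13 between 10.69 (without WT replicate 2) and 12.09 (without WT replicate 1), and Il9 between 5.27 (without DKO replicate 1) and 6.57 (without DKO replicate 2).

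The type 1 cytokine Ifng (chr10:117878103-117882948, mm9), which activates macrophages, was 12.5 and 7.72 FPKM in WT and 5804 and 15420 in DKO. The difference was 9.77 ± 0.72 (adjusted p = 1.03e-06). Ifng was the most abundant transcript of DKO replicate 2 and the fifth of DKO replicate 1. Il2, the T cell growth factor whose silence marks Foxp3-expressing cells, was 2.65 and 1.44 FPKM in WT against 1237 and 3342 in DKO (9.41 ± 0.73, adjusted p = 1.54e-06). Il3 and Csf2, growth factors of myeloid cells that neighbour each other on chromosome 11, behaved alike. Il3 was 0.920 and 0.559 FPKM in WT and 2097 and 5224 in DKO. Csf2 was 0.4998 and 0.282 FPKM in WT and 1018 and 3091 in DKO. For Ifng, Il2, Il3 and Csf2 DKO replicate 2 was the higher of the DKO libraries, whereas Il5 and Il9 were higher in DKO replicate 1. With DKO replicate 2 left out the differences of Ifng, Il2, Il3 and Csf2 were 9.06, 8.70, 10.24 and 9.52. With DKO replicate 1 left out they were 10.47, 10.13, 11.56 and 11.12.

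Cytokines of the type 17 and follicular helper classes also rose, to lower levels. Il17f, which recruits neutrophils, went from 0.548 and 0.724 FPKM to 192 and 92.4 (6.36 ± 0.43). Il17a went from 1.28 and 2.85 FPKM to 187 and 78.0 (5.36 ± 0.74). Il21, which helps germinal centre B cells, went from 0.452 and 0.368 FPKM to 168 and 230 (7.13 ± 0.44). Il24 was listed at 0 and 0.0570 FPKM in WT and at 27.2 and 14.3 in DKO (4.34 ± 0.23). Il10, an anti-inflammatory cytokine that some Treg make, was called higher as well, from 55.1 and 54.8 FPKM to 547 and 866. Tgfb1, another cytokine of Treg, was not called (203 and 200 FPKM in WT, 247 and 190 in DKO). Of these genes Il17a moved most when 1 library was left out, to 4.73 without DKO replicate 1 and 5.98 without DKO replicate 2.

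The 3 cytokine genes called lower were Ltb, Clcf1 and Il16. Ltb encodes lymphotoxin beta, which shapes lymphoid tissue. It was 257 and 306 FPKM in WT and 76.3 and 80.5 in DKO (-1.83 ± 0.41, adjusted p = 0.00416). Clcf1, a relative of IL-6, was 53.6 and 53.2 FPKM in WT and 13.1 and 15.7 in DKO. Il16 (-1.23) lost its call without WT replicate 1, WT replicate 2 or DKO replicate 2 (adjusted p 0.12 to 0.313).

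Chemokine ligands followed the cytokines in size. Of 14 tested, 8 were higher and 1 was lower, with a median of 2.19. Ccl1, a ligand of CCR8, was 4.59 and 1.98 FPKM in WT and 4773 and 4535 in DKO (10.16 ± 0.82, adjusted p = 2.03e-06). Ccl3 and Ccl4, attractants of macrophages and T cells, lay at 1.22 to 7.64 FPKM in WT. In DKO Ccl3 was 664 and 3396 FPKM, and Ccl4 was 871 and 5120. DKO replicate 2 was the higher one for both, by more than for any other of the 10 largest rises. Cxcl3, a neutrophil attractant, was 1.83 and 0.855 FPKM in WT and 184 and 56.4 in DKO (5.49 ± 0.58). The single chemokine called lower was Ccl20, at 10.8 and 9.78 FPKM in WT and 0.596 and 0.749 in DKO. It was not among the calls when any 1 of the 4 libraries was left out. The differences of Ccl3 and Ccl4 were 7.74 and 6.82 without DKO replicate 2, and 10.09 and 9.38 without DKO replicate 1. Cxcl3 moved the other way, to 6.34 without DKO replicate 2 and 4.65 without DKO replicate 1.

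Together the 44 cytokine and chemokine genes of the 2 lists made up 7.86% and 12.4% of the summed FPKM of the DKO libraries, and 0.220% and 0.253% of that of the WT libraries. In stimulated Tconv they made up 0.372% and 0.366%, and in resting DKO Treg 0.324% and 0.140%. Because FPKM values share a fixed total of fragments, transcripts at this level take part of that total from other genes. The size factor of the DKO libraries relative to WT was -0.02 on the log2 scale, and dividing by it changed the call of 1 of the 112 called genes that the naming rule chose (Slc7a5).

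**Figure D2:**
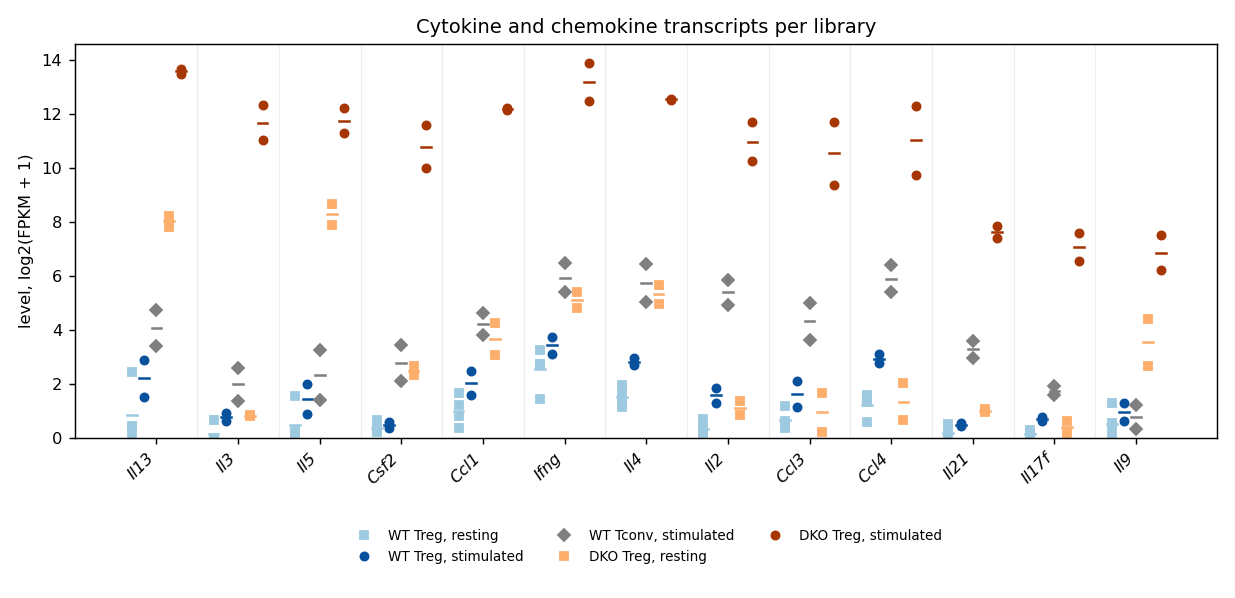
Level of 13 cytokine and chemokine genes in log2(FPKM + 1) for each library of resting WT Treg (4), stimulated WT Treg (2), stimulated WT Tconv (2), resting DKO Treg (2) and stimulated DKO Treg (2). Each symbol is a library and each short bar a group mean. The stimulated DKO libraries lie above all other libraries shown for all 13 genes, and Il13 and Il5 are raised already in resting DKO Treg.

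The excess over stimulated Tconv can be read from the same plot. Il2 was 57.6 and 29.9 FPKM in stimulated Tconv, and Ifng was 88.4 and 41.3. In the single library labelled c-RelKO stim Il2 was 16.5 FPKM and Ifng 97.8. In the library labelled p65KO stim Il2 was 0.162 FPKM and Ifng 7.70, and in the resting library labelled p65KO replicate 3 they were 3.87 and 20.0. The stimulated groups of p65KO and c-RelKO have 1 library each and hence no replicate check. For Il13 the values were 25.9 and 9.74 FPKM in stimulated Tconv, 40.6 in the library labelled c-RelKO stim, 0.264 in that labelled p65KO stim and 7.39 in resting p65KO replicate 3, all far under the DKO libraries.

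Promoters are shown for 4 of the genes with the largest rises, because these genes moved together and are textbook targets of NFAT or NF-kB. The windows hold the 250 bases before the start site, from RefSeq on GRCm38.p6, a later build than the mm9 of the measurements. The sequences run 5′ to 3′ on the strand of the gene. In the first 3, capitals mark the word TGGAAA, the core that NFAT proteins bind, on either strand. In Ccl1 capitals mark the kappa-B consensus, the decamer bound by NF-kB, whose matches on both strands overlap there. The windows are chr11:53634703-53634952, chr3:37125955-37126204, chr11:54249900-54250149 and chr11:82179813-82180062, all on the minus strand.
Il13: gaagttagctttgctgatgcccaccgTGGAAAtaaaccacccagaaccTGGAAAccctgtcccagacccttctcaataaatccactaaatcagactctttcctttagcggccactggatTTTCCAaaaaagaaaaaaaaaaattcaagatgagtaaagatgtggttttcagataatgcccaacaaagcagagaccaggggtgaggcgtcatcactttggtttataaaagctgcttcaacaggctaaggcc
Il2: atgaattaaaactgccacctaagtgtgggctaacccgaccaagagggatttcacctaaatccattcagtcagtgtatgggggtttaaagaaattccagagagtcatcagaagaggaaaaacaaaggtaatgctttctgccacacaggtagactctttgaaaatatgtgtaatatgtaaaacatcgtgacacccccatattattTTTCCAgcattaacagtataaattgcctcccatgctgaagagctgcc
Csf2: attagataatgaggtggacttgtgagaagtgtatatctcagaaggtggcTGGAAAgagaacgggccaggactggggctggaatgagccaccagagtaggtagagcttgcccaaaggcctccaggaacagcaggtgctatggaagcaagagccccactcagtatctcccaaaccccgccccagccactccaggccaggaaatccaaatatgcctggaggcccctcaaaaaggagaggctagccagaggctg
Ccl1: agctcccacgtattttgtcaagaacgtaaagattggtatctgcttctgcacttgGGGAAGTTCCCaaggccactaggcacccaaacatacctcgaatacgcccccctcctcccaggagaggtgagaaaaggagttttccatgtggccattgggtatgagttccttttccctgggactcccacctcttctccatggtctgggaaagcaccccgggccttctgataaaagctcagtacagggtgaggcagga

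The word TGGAAA stood 3 times in the Il13 window, beginning 224, 202 and 131 bases before the start. It stood once in Il2, 47 bases before the start, and once in Csf2, 201 bases before. In the full windows of the table (250 bases before to 50 after the start), 21.4% of 32851 mouse windows held this word, 8.46% the kappa-B consensus and 7.81% the AP-1 word TGANTCA. Of the 15 named genes with the largest rises, 14 were in the table. The NFAT word was found for 9 of these, the kappa-B consensus for 2 (Ccl1 and Ifitm3) and the AP-1 word for 2 (Ifitm3 and Il9). Of the 15 with the largest falls, 7 were in the table. The NFAT word was found for 2 of them, the kappa-B consensus for 1 (Rel) and the AP-1 word for none. A gene was counted if any of its windows held the word, whereas the 21.4% is a share of windows. A match describes the letters of a window and does not show binding. Windows were present for 71.6% of all genes tested, and a share over the called genes is not given.

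The wider type 2 list, which shares Il4, Il5, Il9, Il13 and Il24 with the cytokines, had 11 of 19 tested genes called higher and none lower (median 2.45). Outside the cytokines, Hdc, the histamine-forming enzyme, was 0.840 and 2.68 FPKM in WT and 112 and 68.6 in DKO (5.09 ± 0.65, adjusted p = 7.38e-05). Cysltr1, a leukotriene receptor, was 0.901 and 1.31 FPKM in WT and 106 and 43.3 in DKO (5.04 ± 0.43). Pparg, a nuclear receptor of lipid metabolism, was 1.55 and 1.73 FPKM in WT and 54.4 and 26.03 in DKO (3.88 ± 0.37). Gata3, the lineage factor of type 2 cells, was not called: 87.2 and 110 FPKM in WT and 165 and 86.1 in DKO (0.28 ± 0.44, adjusted p = 0.672), with overlapping groups. Il1rl1, the IL-33 receptor, was 84.9 and 58.3 FPKM in WT and 283 and 76.0 in DKO, also overlapping and not called (adjusted p = 0.376), although the replicate block called it (adjusted p = 0.0462). The difference of Cysltr1 was 4.40 without DKO replicate 1 and 5.68 without DKO replicate 2.

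Type 2 cytokines are also made by mast cells, basophils and innate lymphoid cells. The summed level of the 9 mast cell and basophil markers was 10.2 and 17.4 FPKM in DKO and 1.53 and 5.88 in WT. Hdc, whose higher levels in DKO are given above, is not among these 9. Fcer1a, Ms4a2 and Cpa3 were at most 0.442 FPKM in all 4 libraries, and 1 of the 3 markers tested, Kit, was called higher (1.51 and 2.91 FPKM in WT, 6.96 and 7.78 in DKO). The other markers tested were the basophil proteases Mcpt8, at 0 and 1.42 FPKM in WT and 1.71 and 5.08 in DKO, and Prss34, at 0 and 1.26 in WT and 1.07 and 3.88 in DKO. Neither was called (adjusted p = 0.283 and 0.397). With the run as a replicate block Mcpt8 was called as well (adjusted p = 0.0375), and with the block within the 4 or the 8 libraries all 3 were. The summed level of the markers of group 2 innate lymphoid cells and gamma-delta T cells, 10 genes in the files, was 685 and 289 FPKM in DKO and 259 and 217 in WT. Of the 9 tested, 2 were called higher, Arg1 and Id2. Arg1 was 0.0928 and 0 FPKM in WT and 69.2 and 4.55 in DKO, far higher in DKO replicate 1. Il17rb, a defining receptor of the innate lymphoid cells, was at most 0.790 FPKM in all 4 libraries. Il1rl1, in the same list, was 283 and 76.0 FPKM in DKO and 84.9 and 58.3 in WT. With the run as a replicate block 4 genes of this list were called higher, Il1rl1 among them, and 1, Rora, lower. The part of such cells in the cytokine levels was not tested. In bulk RNA a change in the number of cells of a type and a change of RNA per cell cannot be told apart. Kit lost its call without WT replicate 1 or DKO replicate 2 (adjusted p 0.0679 to 0.118), and the difference of Arg1 was 2.41 without DKO replicate 1 and 6.07 without DKO replicate 2.

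Cytotoxic and natural killer genes rose in part. Of 19 tested, 9 were called higher and none lower (median 1.18). Gzmb, a serine protease of cytotoxic granules, was 16.6 and 36.1 FPKM in WT and 236 and 595 in DKO (3.88 ± 0.51, adjusted p = 9.83e-05). Gzma was 0.528 and 1.30 FPKM in WT and 34.6 and 62.0 in DKO. Gzmc was 0.325 and 0.391 FPKM in WT and 15.6 and 33.8 in DKO. DKO replicate 2 was the higher one for the 3 granzymes, as for Ifng. Prf1, the pore-forming partner of granzymes, was not called, at 0.797 and 0.640 FPKM in WT and 1.004 and 6.19 in DKO. Receptors and granule genes of natural killer cells were among those called higher. Nkg7, a granule membrane protein, was 5.07 and 7.26 FPKM in WT and 142 and 271 in DKO (4.80 ± 1.08, adjusted p = 0.00416). Klrc1 (3.43) and Klrk1 (2.22), which encode NKG2 receptors, reached 10.5 and 16.6 FPKM and 3.75 and 5.26 FPKM in DKO and were at most 0.536 in WT. Klrb1b (1.48) and Ncr1 (1.01) were called at 2.36 and 2.53 FPKM and at 1.401 and 0.736 FPKM in DKO, and Ncr1 lost its call without replicate 1 of either group (adjusted p 0.0609 to 0.09). Eomes, Klrb1c and Cd8a, other markers of natural killer and CD8 T cells, were at most 0.768 FPKM in all 4 libraries. The part of natural killer cells in these differences was not tested. Tbx21, the type 1 lineage factor, rose from 8.93 and 9.93 FPKM to 105 and 120 (3.44 ± 0.34, adjusted p = 1.04e-05). The difference of Gzmb was 3.21 without DKO replicate 2 and 4.55 without DKO replicate 1.

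TNF superfamily ligands, which act on neighbouring cells, were mostly higher. Of 12 tested, 7 were called higher and 1, Ltb, lower (median 1.99), and Tnf and Ltb stand in the cytokine list too. Cd40lg, the ligand through which T cells help B cells, was 97.0 and 56.7 FPKM in WT and 1130 and 1056 in DKO (3.86 ± 0.53, adjusted p = 0.000123). Tnfsf14 (LIGHT) was 2.14 and 3.55 FPKM in WT and 120 and 111 in DKO (4.94 ± 0.70). Tnfsf11 (RANKL) was 25.4 and 28.7 FPKM in WT and 184 and 164 in DKO (2.65 ± 0.30). Tnf itself went from 62.2 and 62.8 FPKM to 253 and 662. The 290 and 291 FPKM of stimulated Tconv lay between the DKO libraries. The difference of Tnf was 2.69, and it became 2.00 without DKO replicate 2 and 3.39 without DKO replicate 1.

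The receptors of that superfamily went the other way: none of 14 was called higher and 4 were called lower (median -0.60), with 1 higher and 8 lower under the replicate block. Fas, the death receptor, was 87.0 and 107 FPKM in WT and 8.07 and 11.1 in DKO (-3.22 ± 0.43, adjusted p = 0.00011). Cd27, a costimulatory receptor, was 162 and 150 FPKM in WT and 20.8 and 38.4 in DKO (-2.42 ± 0.36). The receptors best known as NF-kB linked Treg genes, Tnfrsf4, Tnfrsf9 and Tnfrsf18, were not called. Tnfrsf18 was 783 and 882 FPKM in WT and 433 and 466 in DKO (adjusted p = 0.197), without overlap between the groups.

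Genes that define Treg were more often lower than higher. Of 35 tested genes of the Treg signature, 12 were called lower and 6 higher (median -0.86). The share of rises was near the background of 16.6%, and that of falls was above the 16.2%. Under the replicate block 17 were lower and 9 higher. Foxp3 (chrX:7156802-7172369, mm9) was 336 and 295 FPKM in WT and 6.34 and 8.31 in DKO. It fell by 5.25 ± 0.50 (limma, adjusted p = 7.79e-06), or 43.0-fold between the group means. The DKO level stayed above the 0.709 and 0.596 FPKM of stimulated Tconv. The name DKO Treg follows the label, and what share of these cells were Treg was not tested. Foxp3 was 245 FPKM in the library labelled c-RelKO stim, 195 in that labelled p65KO stim and 282 in the resting p65KO replicate 3. The activation genes of both p65KO libraries went against their labels.

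Lrrc32, which encodes GARP, the surface anchor of latent TGF-beta on Treg, was 570 and 661 FPKM in WT and 13.1 and 15.7 in DKO (-5.32 ± 0.84, adjusted p = 0.000348). Ikzf4 (Eos), a partner of Foxp3 in repression, was 91.0 and 104 FPKM in WT and 16.8 and 9.22 in DKO (-2.87 ± 0.45). Ikzf2 (Helios) was 126 and 150 FPKM in WT and 44.5 and 56.6 in DKO, a smaller fall of -1.43 ± 0.20. Gpr83, Swap70, Lrig1, Ecm1 and Nt5e were also lower, by -1.88 to -3.61. The members called higher were Nrp1, Capg, Entpd1, Rgs16, S100a4 and S100a6. S100a4, a calcium-binding protein of activated and memory T cells, was 93.6 and 64.1 FPKM in WT and 791 and 608 in DKO. Il2ra and Ctla4, receptors that Treg share with activated T cells, were not called. Il2ra was 430 and 623 FPKM in WT and 1130 and 1011 in DKO (adjusted p = 0.124), and Ctla4 was 990 and 729 in WT and 1045 and 1653 in DKO (adjusted p = 0.54). Neither gene's groups overlapped. Several of these calls were close to the threshold. Ecm1, Nrp1 and Entpd1 lost theirs when any 1 of the 4 libraries was left out (adjusted p 0.0549 to 0.0893, 0.0762 to 0.157 and 0.0503 to 0.0762). Nt5e lost it without WT replicate 1 or DKO replicate 2 (adjusted p 0.113 to 0.17), and its difference ran from -2.60 without DKO replicate 1 to -1.17 without DKO replicate 2. Capg lost it without WT replicate 1 (adjusted p = 0.0503) and S100a4 without WT replicate 2 (adjusted p = 0.0521).

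Genes of the effector Treg list moved mainly up: 10 of 29 were called higher and 1, Bach2, lower (median 1.11), with 18 and 4 under the replicate block. Batf, an AP-1 family factor of effector T cells, was 58.6 and 75.7 FPKM in WT and 379 and 445 in DKO (2.61 ± 0.21, adjusted p = 1.93e-06). Prdm1 (Blimp-1), a factor of terminal differentiation, was 6.32 and 7.29 FPKM in WT and 69.3 and 54.1 in DKO (3.00 ± 0.26). Among receptors, Havcr2 (TIM-3) was 5.02 and 7.74 FPKM in WT and 107 and 201 in DKO (4.35 ± 0.42). Lag3, an inhibitory receptor that binds MHC class II, was 8.45 and 9.09 FPKM in WT and 59.97 and 113 in DKO (3.09 ± 0.57). Icos, Irf4, Maf, Tigit and Ccr8 were not called. Icos was 319 and 289 FPKM in WT and 781 and 758 in DKO (adjusted p = 0.0596).

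Genes of resting or central T cells fell together. Of 18 tested, 12 were called lower and 1, Ikzf1, higher (median -2.08), against the background of 16.2% of genes lower. Klf2, which drives the genes for exit from lymphoid tissue, was 235 and 178 FPKM in WT and 16.2 and 12.3 in DKO (-3.77 ± 0.32, adjusted p = 3.05e-06), a 14.5-fold difference of the means. S1pr1, its target and the exit receptor, was 181 and 103 FPKM in WT and 28.1 and 13.7 in DKO (-2.73 ± 0.40). Ccr7, the receptor for entry into the T cell zone, was 1023 and 1083 FPKM in WT and 66.6 and 50.4 in DKO (-4.16 ± 0.85, adjusted p = 0.00227). All 3 of these trafficking genes had both DKO libraries far under both WT libraries.

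The transcription factors Foxo1, Lef1, Satb1, Bach2, Tcf7 and Foxp1, which maintain the resting state, were lower too, by -1.12 to -2.47. Foxo1 was 120 and 101 FPKM in WT and 30.3 and 18.7 in DKO (-2.17 ± 0.24, adjusted p = 2.38e-05). Lef1 was 46.1 and 49.5 FPKM in WT and 10.8 and 11.8 in DKO (-1.99 ± 0.23). Bcl2, the survival factor, was 79.6 and 78.8 FPKM in WT and 13.2 and 14.1 in DKO (-2.45 ± 0.21). In the BCL2 family as a whole 3 of 16 genes were called higher (Bak1, Bik and Bcl2a1d) and 3 lower (Bcl2, Mcl1 and Bbc3). The reads of Bcl2a1d may be shared with near-identical copies of that gene. Tcf7 lost its call without WT replicate 1, WT replicate 2 or DKO replicate 2 (adjusted p 0.0755 to 0.241), and Ikzf1, the one gene of the resting list called higher, without replicate 1 of either group (adjusted p 0.121 to 0.163). In the BCL2 family Bcl2a1d lost its call without any 1 library (adjusted p 0.1 to 0.164) and Bbc3 without WT replicate 1, WT replicate 2 or DKO replicate 1 (0.0621 to 0.105). Mcl1 lost its call without WT replicate 1 or DKO replicate 2 (0.0671 to 0.0795), and Bak1 without WT replicate 1 (0.0696).

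**Figure D3:**
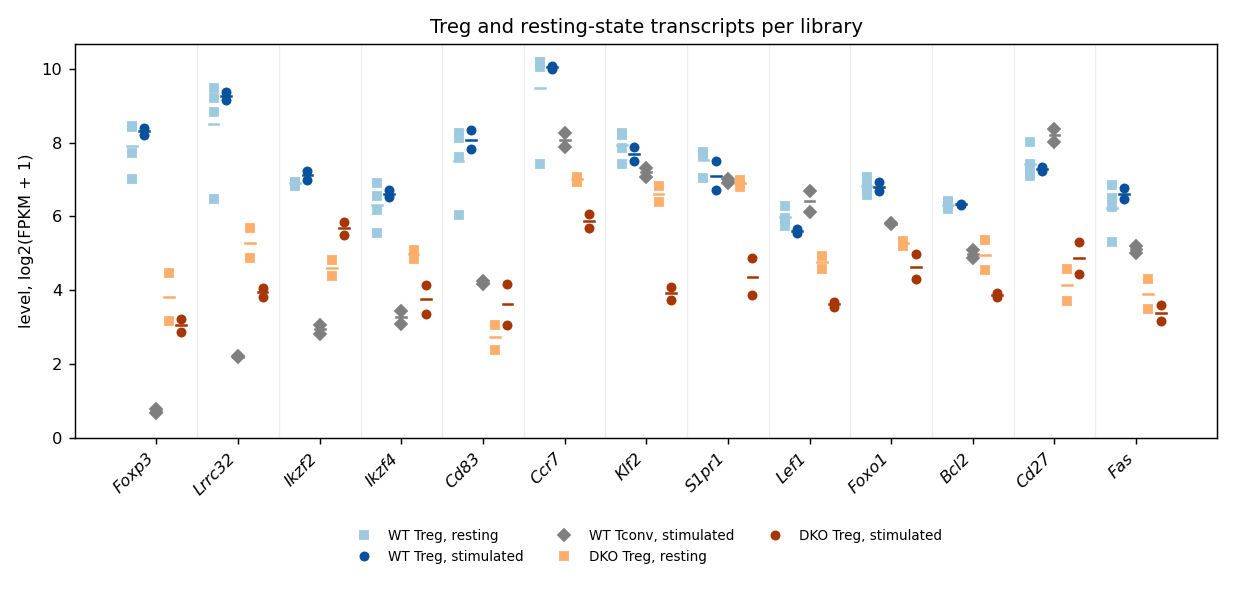
Level of 13 genes of Treg identity, NF-kB response and the resting state in log2(FPKM + 1), for each library of resting WT Treg (4), stimulated WT Treg (2), stimulated WT Tconv (2), resting DKO Treg (2) and stimulated DKO Treg (2). Symbols are libraries and short bars are group means. Both stimulated DKO libraries lie under both stimulated WT libraries for all 13 genes. For Lrrc32, Ikzf4, Ccr7, Klf2, S1pr1, Lef1, Foxo1 and Bcl2 they also lie under both resting DKO libraries.

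The 15 named genes with the largest falls held few of the listed groups. After Rel, Lrrc32 and Foxp3 came Cd83, a surface protein and NF-kB target, at 224 and 325 FPKM in WT and 7.33 and 17.1 in DKO (-4.46 ± 0.73, adjusted p = 0.000458). Next were Zbtb10, Adck3, Ccr7, Plcxd2, Dgat2, Ift80, Klf2, Lad1, St8sia6, Pou6f1 and Vps37b, with differences from -4.34 to -3.65. Dgat2, which makes triglycerides, and Vps37b, an endosomal sorting protein, were called with all 4 libraries and lost the call when any 1 of the 4 was left out. The adjusted p of Dgat2 was then 0.0505 to 0.0545. That of Vps37b was 0.079 to 0.196. Lad1 kept its call and went from -4.65 without WT replicate 1 to -2.87 without WT replicate 2.

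NF-kB feedback and target genes did not move in one direction. Of 12 tested inhibitor and feedback genes, 1 was called lower and 2 higher (median -0.47), and 7 and 3 with the replicate block. Tnip1, a partner of the deubiquitinase A20, was 90.8 and 83.7 FPKM in WT and 40.5 and 35.5 in DKO (-1.18 ± 0.25, adjusted p = 0.00297). Its relative Tnip3 went from 0.215 and 0.623 FPKM to 15.4 and 21.3 (3.77 ± 0.28). Tnfaip3, which encodes A20, was 982 and 644 FPKM in WT and 146 and 77.4 in DKO (-2.89), and Nfkbia, which encodes IkB alpha, was 791 and 745 in WT and 287 and 318 in DKO (-1.34). Neither passed the test (adjusted p = 0.099 and 0.0656), although the groups were far apart.

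Among 24 adaptor and target genes, 7 were called lower and 3 higher (median -0.43), and 12 and 7 with the replicate block. Birc2, a ubiquitin ligase of TNF receptor signalling, was 55.7 and 47.0 FPKM in WT and 22.5 and 18.3 in DKO (-1.29 ± 0.23, adjusted p = 0.000729). Traf1, Birc3, Map3k14 (NIK), Ikbkb and Irf1 were lower by -0.76 to -1.53. Plek and Cflar, an inhibitor of caspase-8, were higher. Cflar was 31.5 and 35.8 FPKM in WT and 68.0 and 61.2 in DKO (0.92 ± 0.18). Most of the smaller falls did not hold with fewer libraries. Traf1 lost its call without any 1 of the 4 (adjusted p 0.0831 to 0.124), Birc3 without WT replicate 1, WT replicate 2 or DKO replicate 2 (0.129 to 0.278), and Ikbkb without WT replicate 1, WT replicate 2 or DKO replicate 1 (0.0918 to 0.15). Map3k14 (0.0584 to 0.0666) and Irf1 (0.124 to 0.141) lost theirs without WT replicate 1 or DKO replicate 2. Traf1 and Birc3 were not called with size factors either.

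Early response genes of the T cell receptor were measured in cells that had all been stimulated. Of 33 tested, 7 were called higher and 1 lower (median -0.35), and 11 and 10 with the replicate block. Irf8 was 28.9 and 39.0 FPKM in WT and 447 and 382 in DKO (3.58 ± 0.57, adjusted p = 0.000401). Egr2, which restrains T cell activation, was 96.6 and 80.7 FPKM in WT and 289 and 214 in DKO (1.48 ± 0.52, adjusted p = 0.0415). The gene called lower was Jun, a subunit of AP-1, at 96.2 and 89.3 FPKM in WT and 12.5 and 12.8 in DKO (-2.78 ± 0.65, adjusted p = 0.00501). Nr4a1, often used as a readout of receptor signal strength, was 1584 and 1286 FPKM in WT and 930 and 1044 in DKO and was not called (adjusted p = 0.757). Of 25 proximal signalling genes, 5 were called higher and 2 lower (12 higher and 5 lower under the replicate block). Zap70, the kinase recruited to the receptor, was 143 and 140 FPKM in WT and 379 and 388 in DKO (1.43 ± 0.22). Rasgrp1, an activator of Ras, fell from 172 and 138 FPKM to 44.97 and 43.1. Egr2 was no longer called when any 1 of the 4 libraries was left out (adjusted p 0.0926 to 0.181).

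The receiving side of cytokine signalling was mixed. Of 28 cytokine receptor genes, 8 were called lower and 4 higher (median 0.15), and 11 each with the replicate block. Ifngr2, a chain of the interferon gamma receptor, was 104 and 67.6 FPKM in WT and 7.99 and 5.92 in DKO (-3.43 ± 0.51, adjusted p = 0.000237). Il4ra, which signals for IL-4 and IL-13, was 266 and 228 FPKM in WT and 48.9 and 40.2 in DKO (-2.45 ± 0.59). Il18rap, an IL-18 receptor chain, rose from 13.01 and 9.11 FPKM to 103 and 69.6. The receptors of IL-4 and of interferon gamma were thus lower where their ligands were higher. Of 25 chemokine receptor and homing genes, 3 were called higher and 5 lower (median 0.19). Cxcr6, a receptor of tissue-resident T cells, was 23.5 and 16.9 FPKM in WT and 472 and 233 in DKO (3.99 ± 0.69). Of 22 checkpoint and costimulatory genes, 5 were called higher and 2 lower. Pdcd1, which encodes PD-1, was 203 and 188 FPKM in WT and 469 and 519 in DKO and did not pass the test (adjusted p = 0.0849).

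Interferon-stimulated genes did not move as a group: 5 of 31 were called higher and 4 lower (median 0.11, and -0.06 to 0.53 over the alternatives). Stat2, Irf7 and Irf9, which carry the interferon response, were among those that were lower. Stat2 was 32.1 and 34.2 FPKM in WT and 13.5 and 10.1 in DKO (-1.43 ± 0.17, adjusted p = 5.62e-05). By contrast Ifitm2, a membrane protein that restricts viral entry, was 8.60 and 9.41 FPKM in WT and 569 and 638 in DKO (5.92 ± 0.21, adjusted p = 1.06e-09). Ifitm3 was 0.671 and 3.55 FPKM in WT and 274 and 455 in DKO, and Ifitm1 was called higher as well. These genes are similar in sequence, and how their reads were divided is not recorded in the files. Irf7 and Irf9 lost their calls without WT replicate 1, WT replicate 2 or DKO replicate 2 (adjusted p 0.0641 to 0.208 and 0.0545 to 0.182). The difference of Ifitm3 was 6.28 without WT replicate 1 and 7.73 without WT replicate 2, and that of Ifitm1 was 4.71 without DKO replicate 2 and 6.52 without DKO replicate 1.

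Cell cycle genes had the highest share of calls among the lists shown: 27 of 30 were higher and none lower (median 2.28), against 16.6% of all genes. The 3 that were not called were Pcna, Ccnd2 and Ccnd3. Aurka, a mitotic kinase, was 3.12 and 6.89 FPKM in WT and 35.6 and 39.8 in DKO (2.76 ± 0.39, adjusted p = 0.000178). Rrm1, a subunit of the enzyme that makes deoxynucleotides, was 20.3 and 25.3 FPKM in WT and 95.3 and 105 in DKO (2.09 ± 0.20). Mki67, the proliferation marker, was 6.81 and 16.7 FPKM in WT and 58.8 and 70.5 in DKO. In WT the second replicate was the higher one for all 3. None of the 30 had a called interaction with stimulation. Over all genes tested only 0.737% had a positive and 0.234% a negative one, so none among 30 is near that background. For Aurka, Rrm1 and Mki67 the difference in resting cells was 3.29, 2.32 and 2.63. Mki67 lost its call without WT replicate 1 or DKO replicate 2 (adjusted p 0.0644 to 0.114), and its difference was 1.88 without WT replicate 1 and 3.07 without WT replicate 2.

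Glycolysis genes also rose as a group: 10 of 16 were called higher and none lower (median 1.504). Ldha, which turns pyruvate into lactate, was 252 and 266 FPKM in WT and 903 and 845 in DKO (1.75 ± 0.22, adjusted p = 6.1e-05). Hk2, the inducible hexokinase, rose from 5.39 and 9.53 FPKM to 75.8 and 60.7 (3.07 ± 0.56). Slc2a1 and Slc2a3, the glucose transporters, were not called. Cholesterol synthesis differed, with 4 of 19 lower and 2 higher (12 and 2 with the replicate block). Myc, a driver of growth, was 294 and 295 FPKM in WT and 185 and 155 in DKO and was not called (adjusted p = 0.294). In its list of 20 growth genes 3 were higher, near the background of 16.6%, and none lower. With the replicate block 10 were higher and 3 lower, and under quantile normalisation none was called. Of 12 heat shock and dissociation stress genes, Hspd1 was called higher and Hspb1 lower (median 0.65). With the run as a replicate block 6 were higher and 1 lower, and with the block within the 4 or the 8 libraries 8 were higher.

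**Figure D4:**
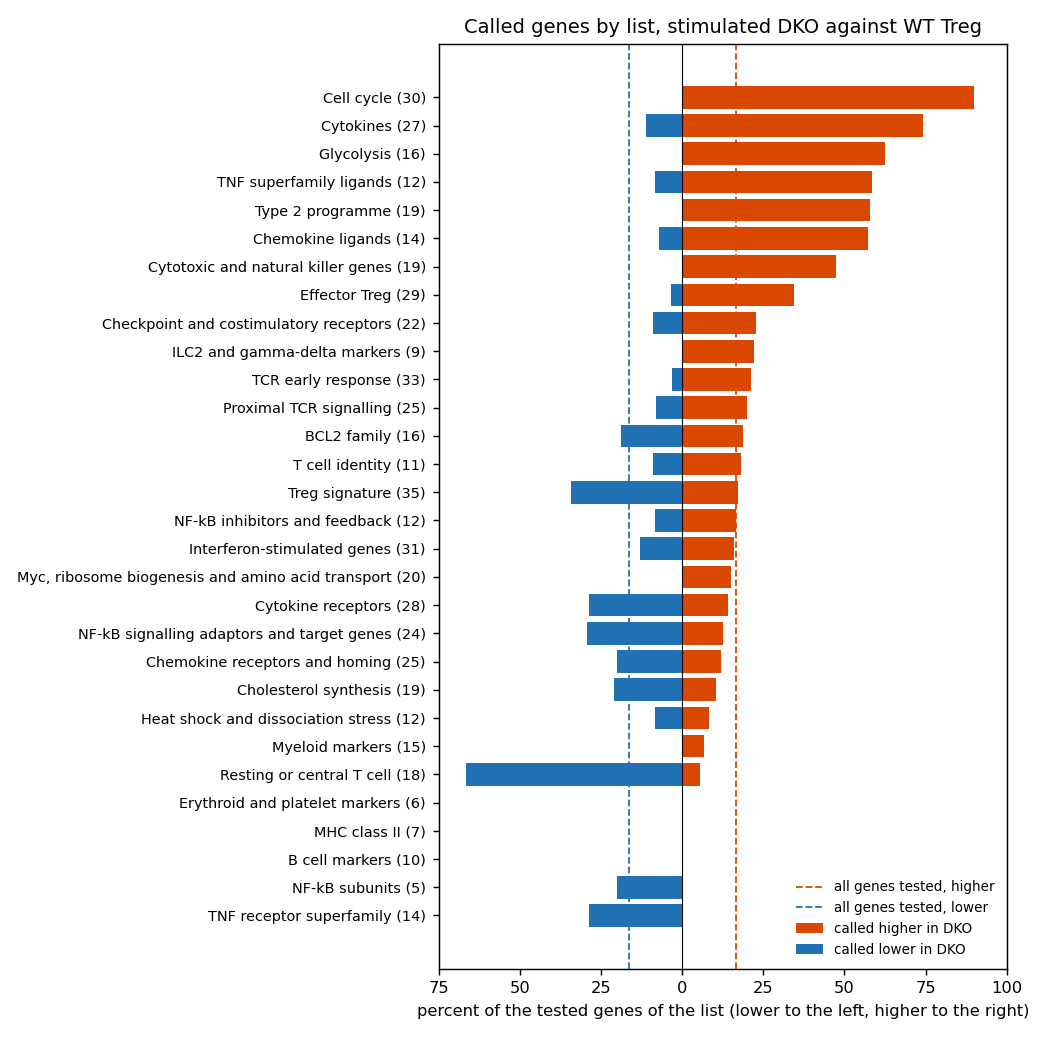
Percent of the tested genes of each list that were called higher (orange, to the right) or lower (blue, to the left) in stimulated DKO Treg against stimulated WT Treg. The number of tested genes is in parentheses and lists with fewer than 5 are not drawn. The dashed lines mark the 16.6% higher and 16.2% lower among all 11532 genes, and cell cycle and cytokine genes reach farthest right and resting or central T cell genes farthest left.

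Markers of other cells were neither all low nor all equal. B cell markers summed to 4.14 and 7.51 FPKM in DKO and 4.92 and 5.53 in WT, and none of 10 was called. MHC class II genes summed to 420 and 284 FPKM in DKO and 118 and 134 in WT. None of the 7 was called in the full fit, 4 were called higher with the replicate block and 5 with only the 4 libraries. H2-Aa was 57.8 and 29.1 FPKM in DKO and 6.57 and 9.28 in WT. H2-Ab1 and H2-Eb1 were higher in DKO as well, whereas Ciita was at most 0.168 in all 4 libraries. Myeloid markers summed to 120 and 204 FPKM in DKO and 56.6 and 82.5 in WT. Cst3, the single one of 15 called in the full fit, was 100.3 and 94.3 FPKM in DKO and 48.8 and 53.7 in WT. Fcer1g was 6.10 and 10.8 FPKM in DKO and 0.394 and 1.57 in WT. Alternative limma fits called it higher, among them the run as a block (adjusted p = 0.0249) and only the 4 libraries (adjusted p = 0.0119). Erythroid genes reached 388 FPKM in DKO replicate 2, where Hba-a1 was 298, and 15.5 in DKO replicate 1 and 5.56 and 6.76 in WT. None of these was called. S100a8 and S100a9, genes of neutrophils, were 36.2 and 37.4 FPKM in DKO replicate 2 and at most 6.99 elsewhere. Their part in the differences between the groups was not tested. The cytokine list summed to 35480 FPKM in DKO replicate 1 and to 51830 in DKO replicate 2. Of these libraries, replicate 1 had the higher MHC class II sum and replicate 2 the higher B cell, myeloid and erythroid sums. Cst3 (0.91) lost its call without WT replicate 1, DKO replicate 1 or DKO replicate 2 (adjusted p 0.0507 to 0.0854).

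A set of genes chosen by a difference between other libraries places these differences beside ordinary activation. In Tconv, stimulation raised 459 genes (3.98% of those tested) and lowered 230 (1.99%) by at least 2-fold with an adjusted p under 0.05. Of the 459, 194 were called higher and 20 lower in stimulated DKO Treg against WT Treg (median 0.63). With the replicate block these counts were 295 and 44. Of the 230, 5 were called higher and 137 lower (median -0.92). The background for the counts without the block is 16.6% higher and 16.2% lower. For those with the block it is 3621 higher and 3609 lower of all 11532 genes. The levels compared for this choice came from none of the 4 libraries. Its adjusted p, however, used the spread estimated over all 21 libraries, which include the 4. The choice and the calls are therefore not independent. A stricter choice (4-fold and an adjusted p under 0.01) left 107 raised genes with 57 called higher and 3 lower.

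Sets that distinguish resting WT Treg from resting WT Tconv were less one-sided. Of 551 genes higher in Treg (4.78% of those tested), 154 were called higher and 129 lower (median -0.06, with 206 each under the replicate block). The sign of this median depended on the processing. It was 0.19 with a pseudocount of 0.1 and 0.05 with size factors, and -0.50 for the 113 genes of the strict choice, of which 18 were higher and 48 lower. Of 235 genes lower in Treg (2.04% of those tested), 19 were called higher and 81 lower (median -0.48). Genes of Tconv were thus more often lower than higher in stimulated DKO Treg.

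The last question was whether the difference between DKO and WT Treg was the same with and without stimulation. The interaction, the stimulated difference minus the resting one, was called for 112 genes: 85 positive (0.737%) and 27 negative (0.234%). With the run of library numbers as a block 1612 were called, 523 positive and 1089 negative, so the larger side changed. With size factors the counts were 104 and 10, and with quantile normalisation 88 and 6. Leaving out 1 stimulated library gave 34 to 119 genes, the fewest without WT replicate 1. A resting WT library, replicate 1, stood apart from the other 3, with Rel at 27.5 FPKM against 200 to 271, and without it and 1 c-RelKO library 116 were called.

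Cytokines and chemokines led the positive interactions: 10 of 27 cytokine genes had one and none a negative one. Il3 had the largest, 10.24 ± 0.91 (adjusted p = 3.99e-05). In resting DKO Treg it was 0.806 and 0.753 FPKM, against 2097 and 5224 after stimulation. Il2 was 1.62 and 0.799 FPKM in resting DKO Treg, and its interaction was 8.62 ± 0.96 (adjusted p = 0.000325). Ccl3 (8.62), Csf2 (8.20), Ccl4 (8.0), Ccl1 (7.5) and Ifng (7.20) followed. For these genes the resting DKO and the stimulated WT libraries were far under the stimulated DKO libraries. The interaction of Ccl4 was no longer called without WT replicate 1 or DKO replicate 2 (adjusted p 0.0686 to 0.0693). With a pseudocount of 0.1 those of Il3, Il2 and Ccl1 were not called either (9.53, 7.82 and 7.02, adjusted p = 0.0649, 0.0707 and 0.0534).

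Il13 and Il5 differed from this pattern in their resting levels. Il13 was already 298.5 and 228 FPKM in resting DKO Treg and at most 4.499 in the 4 resting WT libraries, a resting difference of 7.19 ± 0.89 (adjusted p = 5.77e-05). Il5 was 412 and 239 FPKM in resting DKO Treg, and its resting difference was 7.83 ± 0.78. The interactions of Il13 (4.20 ± 1.36, adjusted p = 0.234) and Il5 (2.49 ± 1.20, adjusted p = 0.501) were not called. The other type 2 cytokines were lower at rest: Il4 was 50.5 and 30.3 FPKM in resting DKO Treg and Il9 20.4 and 5.42, which is nearer to the 27.3 and 41.3 of Ifng, and Il24 was at most 0.682. Il24 had a called interaction (3.76), whereas those of Il4 (adjusted p = 0.076) and Il9 (adjusted p = 0.113) were not called. Ifitm2 was 764 and 820 FPKM in resting DKO Treg, slightly above its stimulated level. Whether these interactions differ from those of Il3 or Il2 was not tested.

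Early response genes added 7 positive interactions of 33, and their median difference was -1.31 in resting cells against -0.35 after stimulation. Egr2, for example, was lower in resting DKO Treg by -2.90 and higher after stimulation by 1.48 (interaction 4.38, adjusted p = 0.00577). Among the negative interactions Klf2 was the largest named one, at -2.44 ± 0.42 (adjusted p = 0.012). It was 82.1 and 112 FPKM in resting DKO Treg and 16.2 and 12.3 after stimulation, while WT Treg had 169 to 306 at rest and 235 and 178 after stimulation. Genes raised in Tconv by stimulation held 34 of the 85 positive interactions and none of the 27 negative ones. The interaction of Klf2 lost its call without WT replicate 1 or DKO replicate 2 (adjusted p 0.087 to 0.103).

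**Figure D5:**
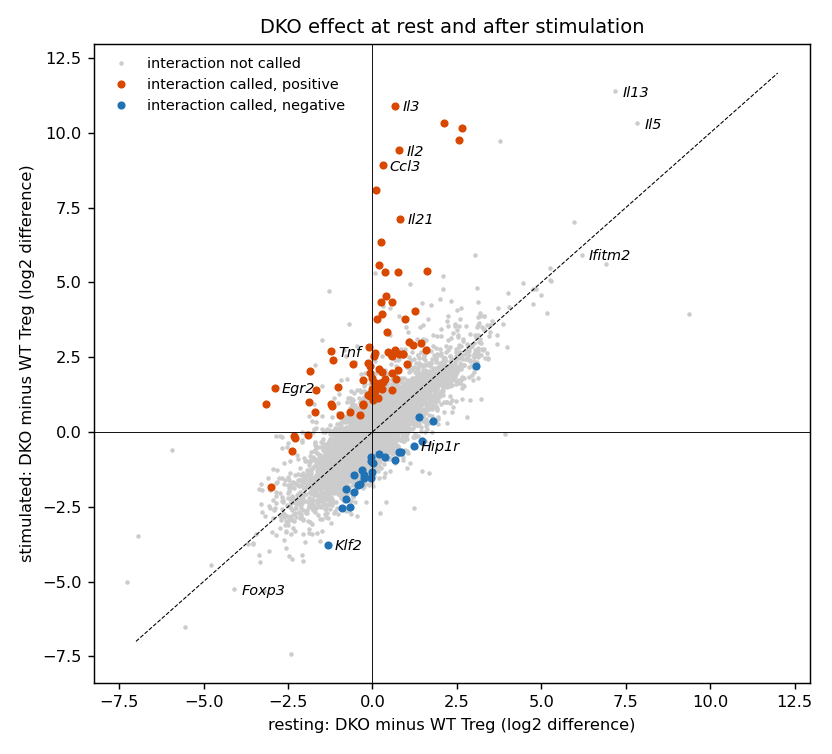
Difference between DKO and WT Treg at rest (horizontal axis) and after stimulation (vertical axis), in log2(FPKM + 1), for 11532 genes. Orange and blue points have a called positive or negative interaction, grey points do not, and the dashed line marks equal differences. Il3, Il2 and Ccl3 lie near 0 at rest and high after stimulation, whereas Il13, Il5 and Ifitm2 are high in both.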

How the data were processed

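The authors deposited gene-level FPKM values with confidence bounds, 1 table per library, as Cufflinks gene tracking tables per the file headers. The mm9 build and the tools bcl2fastq, TopHat and Cufflinks are those of the submitters' processing notes. Their versions, the gene annotation and the use of strand were not given in any source used here, so overlapping and antisense genes are uncertain. Qiagen RNeasy kits gave the RNA and an Illumina TruSeq kit the libraries, per the labels' protocols. No read counts are in the tables, so no count test was run. The implied depths were summed from the confidence bounds and are estimates.

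Each table had 23699 entries for 23235 symbols. The 250 symbols with an entry not marked OK in some library were left out, and the entries of 181 symbols on several lines were summed, which left 22985. The test was limma 3.58.1 (R 4.3.3) on log2(FPKM + 1), with the variance trended on the mean, 21 libraries, 10 groups and 11 residual degrees of freedom. The filter kept genes that reached 1 FPKM in 2 or more libraries, and calls are at a Benjamini-Hochberg adjusted p under 0.05. Figures were drawn with matplotlib 3.10.9. The fit was tested on simulated data before use.

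Same-numbered libraries deviated together: over 10 pairs of groups with 2 libraries in the same 2 runs of library numbers, the correlation of their deviations was 0.351 to 0.643, and 0.482 for stimulated DKO with stimulated WT Treg. The number goes with the run of library numbers. A fit with the run as a block was therefore an alternative, beside another pseudocount, filters, scalings, subsets of libraries and leaving out each library.

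The comparison, the 33 gene lists (541 symbols, 5 not found) and the tests were chosen with earlier results of these data known. The rule for named genes took Rel, Rela and Foxp3, the 15 called genes that rose most and the 15 that fell most, provided that 1 group averaged 5 FPKM or more, both pairs moved alike and the groups did not overlap, up to 4 genes per list with the smallest p, and the 6 largest positive and 6 largest negative called interactions. It leaves out predicted genes, RIKEN clones, antigen receptor segments and small RNAs. It named 146 genes. Other list members in the text, such as Il10, Tnf, Tbx21, Egr2, Hdc or Tnfaip3, were chosen after their values were seen. A few genes are counted in their lists but not reported by name here.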

Additional observations from a re-analysis of the deposited data

Results flagged for a closer look

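For 27 named genes the difference between DKO and WT Treg itself differed between stimulated and resting cells, by the interaction term of the limma fit (Benjamini-Hochberg adjusted p under 0.05). The values below are interactions on the log2(FPKM + 1) scale. Among secreted factors they were 10.24 for Il3, 8.62 for Il2, 8.62 for Ccl3, 8.20 for Csf2, 8.0 for Ccl4, 7.5 for Ccl1, 7.20 for Ifng, 6.32 for Il21, 6.10 for Il17f, 3.76 for Il24, 2.56 for Tnfsf11 and 1.69 for Ccl17. Among regulators and signalling genes they were 3.64 for Tnip3, 2.96 for Ifih1, 2.81 for Ier3, 2.07 for Sla, 2.04 for Pdcd1lg2, 1.91 for Prdm1, 1.71 for Batf and 1.20 for Cflar. The negative ones were -2.44 for Klf2, -1.85 for Tecpr1, -1.75 for Mtap6, -1.67 for Hip1r, -1.64 for Rasa3, -1.61 for Ccng2 and -1.18 for Stat2.

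All 27, which were chosen because their interaction was called, kept their direction under each alternative that could be fitted. With the run as a replicate block all 27 were called, with a pseudocount of 0.1 19 were, and with 1 of the 4 stimulated libraries left out 11 (without WT replicate 1) to 22 (without DKO replicate 1) were. Il2, Il3, Il17f and Ccl1 were among those not called with the pseudocount of 0.1, and Hip1r and Stat2 were not called with size factors. Hip1r was 35.9 and 31.4 FPKM in stimulated WT and 27.7 and 21.2 in stimulated DKO Treg, but 74.3 and 75.8 in resting DKO Treg.

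In the 4 resting WT Treg libraries, 1 library lay far from the others for Ccng2, at 65.2 FPKM, and 1 for Il3, at 0.578 FPKM with the other 3 at 0. Chance alone sets 1 sample apart in this way in about 1 of 20 groups.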

How the results depend on the processing

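The 3774 calls of the stimulated comparison became 5770 with only the 8 Treg libraries of runs 3 and 4. They became 7230 with the run as a replicate block, 6682 with that block within the 4 libraries and 7498 with it within the 8 libraries, the last chosen after seeing the data, as was leaving out 2 p65KO libraries (3921). Leaving out 1 library gave 1903 to 2804. The other alternatives gave 3552 to 4947. The 112 interactions became 66 with a pseudocount of 0.1, 188 without a filter, 1612 with the replicate block and 1394 with the block within the 8 libraries, and 34 to 119 with 1 library left out. The share of positive ones, 75.9%, was 91.2% with size factors, 93.6% with quantile normalisation and 32.4% with the block. The cause of these shifts was not tested.

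Of the 112 named genes called, 95 were called under all 18 alternatives and none turned its direction. The replicate block lost none, and it left the differences of this comparison unchanged. The naming rule chose genes by call, lack of overlap, agreement of the pairs or small p in these same libraries. The stability of the named genes is thus partly fixed by that choice. Calls were lost by 15 without WT replicate 1, 14 without DKO replicate 2, 8 without DKO replicate 1 and 5 without WT replicate 2, among them Cd4, Col1a1, Dgat2, Slc7a5 and Vps37b in all 4. The median over genes raised in stimulated Tconv was 0.50 to 1.04 over all settings, that over genes lowered there -1.54 to -0.81, and that over genes lower in resting Treg than Tconv -0.68 to -0.34. With 2 libraries a group, a replicate left out leaves a lone library that is assumed to vary like the other groups. FPKM below 1 rests on few fragments, so differences there are compressed by the pseudocount.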
